A study of Mus musculus with 28 samples.

Results

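The genes described here are zinc finger genes of the mouse that carry a Zfp symbol with a 3-digit number, together with C030039L03Rik, a gene that the reference names Zfp607b. They were selected on their level, a mean of 5 CPM (counts scaled to the library's total) or more over all 28 libraries, which left 216 of the 295 genes with such a name and of 25900 genes in the table. C030039L03Rik was chosen by its measured fall with the mutation in these same libraries, so its values are given as a description with no test, and the counts of genes that passed a test cover the other 215. Of the 79 names left out, 7 were at 0 in every library. Just under the limit lay Zfp963 at 4.999 CPM, Zfp618 at 4.937 and Zfp568 at 4.921, and just over it lay Zfp619 at 5.139, Zfp551 at 5.164 and Zfp959 at 5.214.

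The study sequenced polyA RNA from the frontal cortex of C57BL/6 mice aged 20 months that carried the Q331K change in TDP-43 as a knock-in. TDP-43, the product of Tardbp, is an RNA-binding protein found in the inclusions of amyotrophic lateral sclerosis and frontotemporal dementia. The 8 WT libraries came from mice with no mutant allele (+/+), the 10 HET libraries from heterozygous and the 10 HOM libraries from homozygous knock-in mice, and no library had another treatment. The labels do not say that each library was a separate animal, nor give sex, litter or batch, so p-values measure only the spread between these libraries.

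C2H2 zinc finger proteins bind DNA through strings of short zinc-holding loops, the fingers, and form the largest family of transcription factors in mammals. Many also carry a KRAB domain, which recruits the corepressor Trim28 and through it the histone methyltransferase Setdb1. KRAB zinc finger proteins are best known for silencing transposable elements, and their genes lie in clusters that grew by duplication. As the tissue is a mix of cells, a lower level of a gene can come from fewer cells that express it or from less RNA per cell, and bulk libraries cannot tell these apart.

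The 216 genes lay on 20 chromosomes, with 55 on chromosome 7, 24 on chromosome 17 and 18 on chromosome 8. A coding sequence was matched for 213 of them. Of these, 101 had a stretch that resembled a KRAB domain and 112 had none, and the number of C2H2 fingers ran from 0 to 36 with a median of 9.00. KRAB-type genes had a lower GC content in their transcripts, with a median of 44.0% against 51.0% for those without the stretch and 50.3% over all genes tested.

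Promoter sequences of 4 of the genes are shown, since these genes moved the same way in the comparison of HOM with WT: C030039L03Rik, which had the largest fall, Zfp788 and Zfp597, which stayed past the test's threshold under every alternative tried, and Zfp108, whose promoter held 2 copies of a motif that was frequent among the KRAB-type genes. Each window runs from 250 bases before to 50 bases after a RefSeq start (GRCm38.p6). Capitals mark matches on either strand to the GC box GGGCGG, the CCAAT box CCAAT, the ETS core CCGGAAG or the ZNF143 motif, searched as ACTACA, any 2 bases and TCC. The windows were chr7:27674411-27674710 on the plus strand for C030039L03Rik, chr7:41633281-41633580 on the plus strand for Zfp788 (the first of 2 windows), chr16:3872325-3872624 on the minus strand for Zfp597 and chr7:24254544-24254843 on the plus strand for Zfp108.
C030039L03Rik: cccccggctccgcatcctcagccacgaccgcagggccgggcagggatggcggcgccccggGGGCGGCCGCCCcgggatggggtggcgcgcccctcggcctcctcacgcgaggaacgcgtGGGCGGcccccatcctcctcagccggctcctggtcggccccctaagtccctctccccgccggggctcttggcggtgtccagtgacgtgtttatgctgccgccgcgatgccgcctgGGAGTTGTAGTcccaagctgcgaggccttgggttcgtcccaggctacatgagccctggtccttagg
Zfp788: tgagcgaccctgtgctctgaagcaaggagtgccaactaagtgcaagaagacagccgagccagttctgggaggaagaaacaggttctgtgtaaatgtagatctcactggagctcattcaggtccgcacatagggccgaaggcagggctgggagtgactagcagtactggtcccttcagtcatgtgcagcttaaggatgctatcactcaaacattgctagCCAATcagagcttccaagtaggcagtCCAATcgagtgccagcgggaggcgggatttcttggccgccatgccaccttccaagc
Zfp597: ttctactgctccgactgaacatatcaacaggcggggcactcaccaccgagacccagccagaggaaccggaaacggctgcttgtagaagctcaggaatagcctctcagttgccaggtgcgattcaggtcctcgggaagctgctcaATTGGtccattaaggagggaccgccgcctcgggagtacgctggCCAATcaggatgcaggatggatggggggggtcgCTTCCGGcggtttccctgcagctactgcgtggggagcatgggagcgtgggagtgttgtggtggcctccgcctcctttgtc
Zfp108: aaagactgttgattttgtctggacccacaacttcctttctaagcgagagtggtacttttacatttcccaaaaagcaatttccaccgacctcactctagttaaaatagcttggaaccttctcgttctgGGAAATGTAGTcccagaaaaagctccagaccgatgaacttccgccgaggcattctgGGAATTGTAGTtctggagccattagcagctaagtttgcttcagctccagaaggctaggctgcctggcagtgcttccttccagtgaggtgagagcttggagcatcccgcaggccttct

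The C030039L03Rik window held 3 GC boxes, of which the first 2 adjoin without overlapping, and 1 ZNF143 match. It also covers the start of Map3k10, a kinase gene on the other strand that ends at base 27674598. This window belongs to the RefSeq model of Zfp607b and ends upstream of the start of C030039L03Rik as counted. Whether the counted transcripts start there was not tested. The Zfp788 window held 2 CCAAT boxes, the Zfp597 window 2 CCAAT boxes and 1 ETS core, and the Zfp108 window 2 ZNF143 matches. A ZNF143 match also stood in a window of Zfp219, which was higher in HOM than in WT. The windows of Zfp788, Zfp597, Zfp655, Zfp617 and Zfp101, all lower in HOM, held none. RefSeq windows were matched for 177 of the 216 genes (223 windows), with none for Zfp654. The ZNF143 motif stood in 12.6% of the windows of these genes, in 3.51% of the windows of all genes tested and in 1.98% of all 32851 promoter windows. Among the KRAB-type genes 19.2% of windows held it, and among the others 6.96%. Of the 104 KRAB-type windows 52 held a CCAAT box, against 37.4% of all windows and 37.3% of those of genes tested. The ETS core stood in 26.0% of them against 8.86% of all windows and 14.8% of those of genes tested, and the GC box in 38.5% against 35.7% of all windows and 58.8% of those of genes tested. No matches overlap in the windows shown. A match describes the letters of a window and does not show that a factor binds there.

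Library totals were 46549074 to 64080942 counts in WT, 45049064 to 74907712 in HET and 30460746 to 62617027 in HOM, and the 216 genes took 0.71% of all counts on average. Their summed level was 7180.5 ± 82.13 CPM in WT (SD, n = 8), 7140.2 ± 77.3 in HET (SD, n = 10) and 7124.7 ± 105.31 in HOM (SD, n = 10), with ranges that overlapped. The 2 shallowest libraries, HOM 2 at 30460746 counts and HOM 1 at 32834610, also had the lowest values of the KRAB-type genes. They were left out together, and each alone, in alternative fits. Markers of neurons were at 7075 to 7899 CPM summed over 6 genes in WT and 6870 to 7824 in HOM, so the neurons that define the labelled tissue were present, and no marker found in the table averaged under 0.1 CPM. Tardbp stood at 321 ± 13.6 CPM in WT, 328 ± 13.3 in HET and 349 ± 18.9 in HOM (SD, n = 8, 10 and 10). Between HOM and WT it was higher by 0.12 on the log2 scale (SE 0.032, edgeR adjusted p = 0.0185). In HOM, 7 libraries were above the highest WT library. The level of Tardbp cannot check the labels, since the knock-in changes a residue.

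Per kilobase of exon, Zfp365, a coiled-coil protein of neurons, had the highest level at a mean of 120 RPKM (CPM per kilobase of exon) and a range of 109 to 129 over the libraries. Zfp238, named Zbtb18 in the reference and a repressor needed for the development of cortical neurons, followed at 53.2 RPKM (46.1 to 58.9). Zfp706 stood at 37.4 RPKM (34.2 to 40.4), Zfp106, an RNA-binding protein that motor neurons need, at 33.6 (31.6 to 37.2) and Zfp187 (Zscan26) at 32.5 (29.8 to 36.2). The first 2 were separate from each other and from the rest in every library, whereas the ranges of Zfp706, Zfp106 and Zfp187 overlapped. The median over 214 genes with an exon length was 4.14 RPKM, and the lowest were Zfp407 at 1.01, Zfp846 at 0.944 and Zfp619 at 0.861, whose ranges overlapped. None of these 8 genes passed the test in any comparison.

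C030039L03Rik encodes a KRAB-type protein of 648 residues with 17 fingers and lies at chr7:27689340-27706484 on the plus strand (GRCm38). Its level was 20.4 CPM in the lowest, 21.6 in the median and 22.1 in the highest WT library. In HET the lowest, median and highest libraries were at 18.4, 19.4 and 20.4 CPM, and in HOM at 17.1, 18.2 and 19.2 CPM. Every HET and every HOM library was lower than any WT library, and 7 HOM libraries were lower than any HET library. The gap between HET and WT was narrow, with HET 4 at 20.369 CPM and WT 1 at 20.388. Over all genes, 0.459% had no overlap between HOM and WT and 0.0497% none between HET and WT, from which nothing is read here, since this gene was chosen for its fall. The difference was -0.23 on the log2 scale (SE 0.028) between HOM and WT, -0.12 (SE 0.028) between HET and WT and -0.11 (SE 0.014) per allele. Per kilobase it stood at 3.55 RPKM. Its protein was 76.4% identical to that of Zfp607 (Zfp607a), which was at 0.883 CPM and is not among the genes described, and 41.7% identical to Zfp712, the nearest that is. Of its 50-base words, 10.87% were shared with other genes, most with Zfp780b, so a part of its reads may have been assigned by the counting rule.

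**Figure D1:**
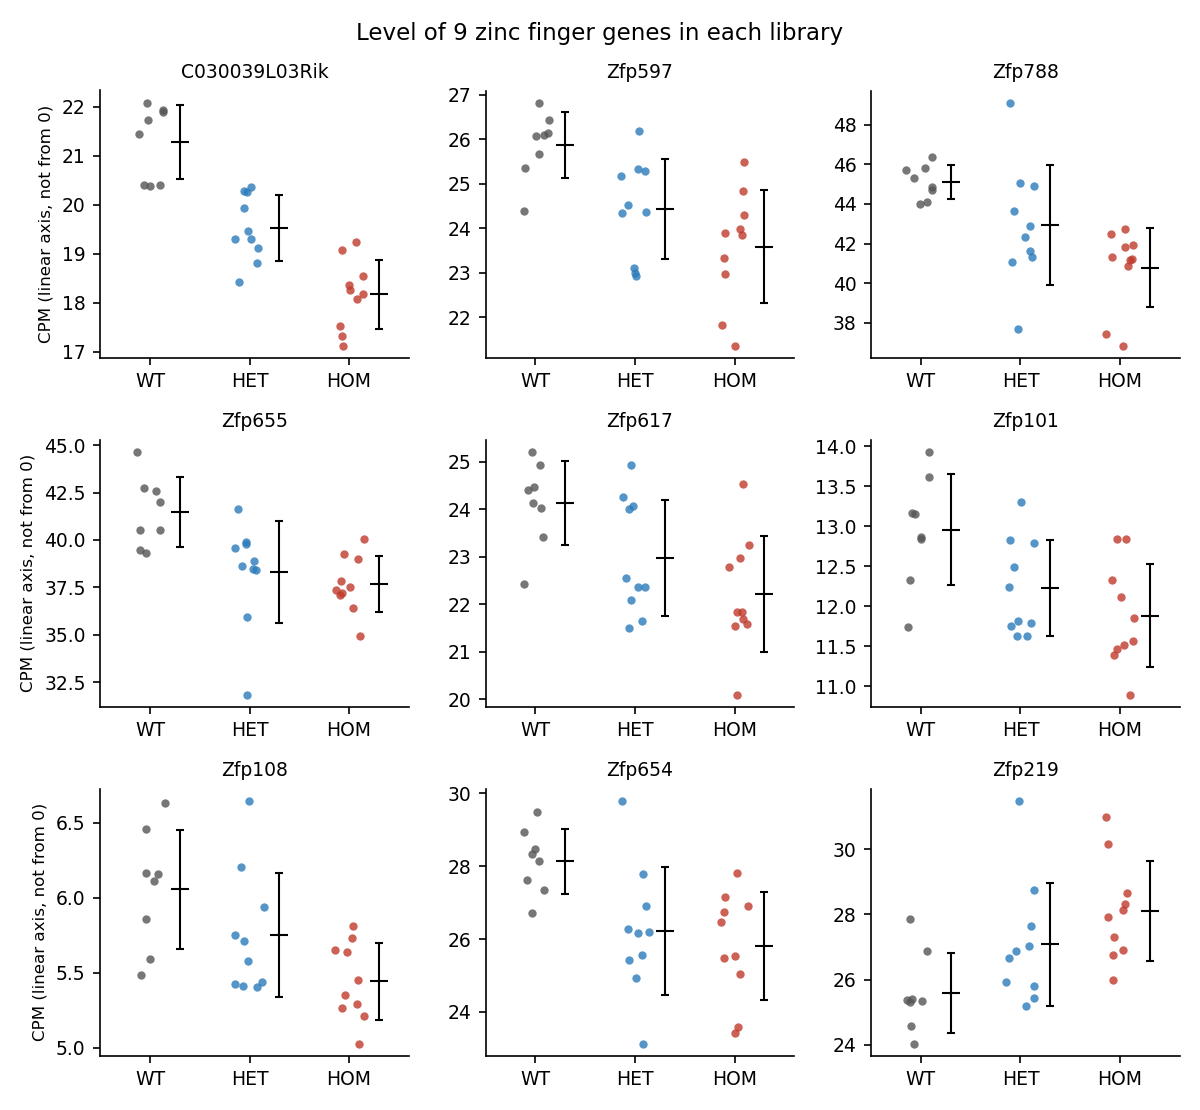
Level in CPM (linear axis that does not start at 0) of C030039L03Rik and the 8 zinc finger genes that passed the test between HOM and WT, with 1 point per library by genotype (8 WT, 10 HET, 10 HOM) and the mean ± SD beside them in black. C030039L03Rik falls from 21.3 to 19.5 and 18.2 CPM, and Zfp219 alone among the 9 rises, from 25.6 to 28.1 CPM.

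The zinc finger genes next to it were mostly lower in HOM as well. Within 0.5 Mb of C030039L03Rik, 31 other genes were tested, 8 of them zinc finger genes by name whose starts lay 42 to 299 kb downstream. Of these 8, 7 were lower in HOM than in WT and 2 passed the test as lower, where 3.71% of all genes were called lower. Of the 23 other genes in the window, 8 were lower, and 3 passed the test, all of them higher (Adck4, Blvrb and Prx, edgeR adjusted p = 0.0310, 0.00871 and 0.0447). Zfp60, at 45.1 CPM on average, differed by -0.18 (SE 0.030, adjusted p = 6.23e-04 by edgeR's quasi-likelihood test with Benjamini-Hochberg adjustment over all genes). 1700049G17Rik, a gene the reference names Zfp974, differed by -0.18 (SE 0.051, edgeR adjusted p = 0.0293). Their differences between HET and WT were both -0.14 on the log2 scale, and neither passed the test there. Map3k10, whose start lies in the promoter window of C030039L03Rik, differed by 0.07 (SE 0.033, edgeR adjusted p = 0.162). These neighbours fall outside the naming rule or the level limit and were picked out after their values were seen.

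**Figure D2:**
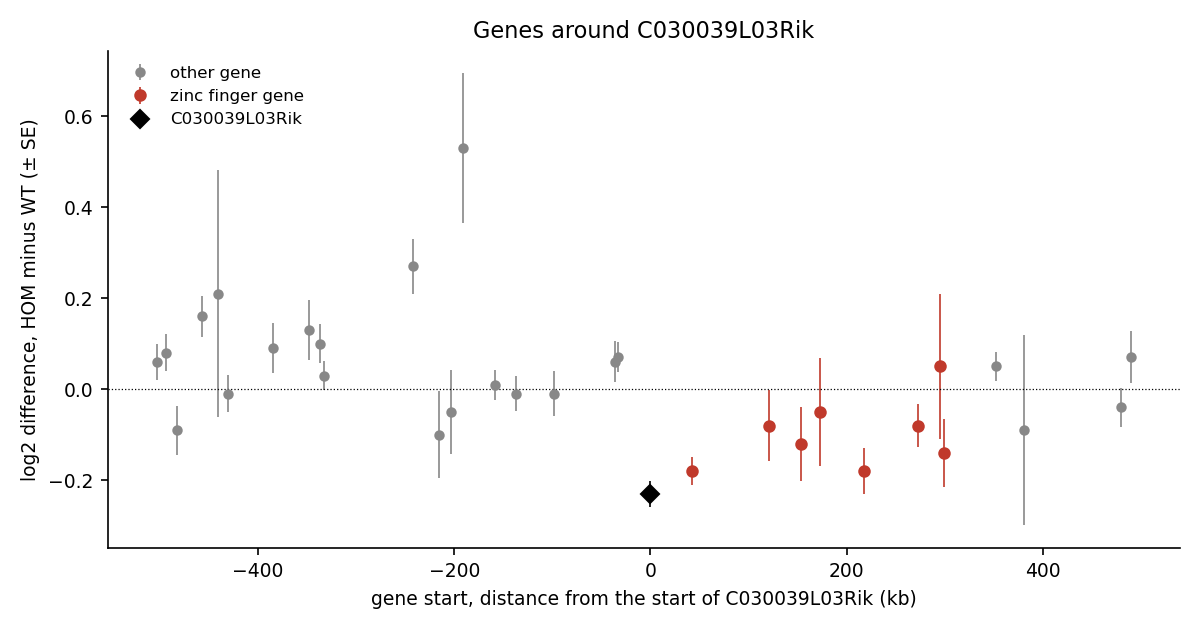
Difference between HOM and WT (log2, ± SE from the edgeR fit) of the 31 genes tested within 0.5 Mb of C030039L03Rik, against the distance of their start from its start in kb; red points are zinc finger genes, grey points other genes, the black diamond C030039L03Rik. The zinc finger genes lie together on 1 side, with 7 of 8 below 0.

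Between HOM and WT, 8 of the other 215 zinc finger genes passed edgeR's test at an adjusted p under 0.05, 7 of them lower and 1 higher in HOM, which is 3.72% of them against 7.61% of the 16110 genes tested. The 7 lower ones are near the share of all genes called lower, 3.71%, and the 1 higher one is under the share called higher, 3.90%. All 8 differences were small, from -0.15 to 0.14 on the log2 scale. At an unadjusted p under 0.05 there were 54 genes (25.1%), against 24.6% of all genes. The number called lower was 2 without WT library 6, 3 without WT 2, WT 7 or HOM 2, 4 without WT 8 and 12 without HOM 7. The number called higher was 0 without WT 3, WT 6, WT 8 or HOM 1, 2 without WT 4 or HOM 7, and 4 without HOM 3 or HOM 8.

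Zfp788, a KRAB-type gene with 23 fingers at chr7:41633203-41651534, had 44.0, 45.1 and 46.4 CPM in its lowest, median and highest WT library, 37.7, 42.6 and 49.1 in HET, and 36.8, 41.3 and 42.8 in HOM. All 10 HOM libraries were under the lowest WT value, while HET spread on both sides of WT. The difference between HOM and WT was -0.14 (SE 0.036, edgeR adjusted p = 0.0149). It was the only one of the 215 whose HOM and WT libraries did not overlap, against 0.459% of all genes.

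Zfp597, a KRAB-type gene with 7 fingers at chr16:3858321-3884561, had 24.4, 26.1 and 26.8 CPM in its lowest, median and highest WT library, 22.9, 24.4 and 26.2 in HET, and 21.4, 23.9 and 25.5 in HOM. In HOM, 8 of 10 libraries were under the lowest WT value. The difference between HOM and WT was -0.13 (SE 0.033, edgeR adjusted p = 0.0139). Zfp597 overlaps 2 coding genes on the other strand and shares 24.71% of its 50-base words with other genes, most with Gm26675, so its count is uncertain.

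Zfp655, a KRAB-type gene with 6 fingers at chr5:145231723-145247302, had 39.3, 41.3 and 44.7 CPM in its lowest, median and highest WT library, 31.8, 38.8 and 41.6 in HET, and 34.9, 37.4 and 40.05 in HOM. In HOM 9 of 10 and in HET 6 of 10 libraries were under the lowest WT value, and the highest HET library lay above the median of WT. The difference between HOM and WT was -0.14 (SE 0.037, edgeR adjusted p = 0.0227). This call was lost without WT 2 or WT 6, without HOM 1 and HOM 2 together (adjusted p = 0.0598), without WT 6 and HOM 3 together, with the replicate number as a block and with an offset for GC and length (adjusted p = 0.0584).

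The other 4 lower genes lay closer to the threshold, with edgeR adjusted p from 0.0361 to 0.0453, and their HOM and WT libraries overlapped. Zfp617 (KRAB-type, 14 fingers) went from 24.1 ± 0.882 CPM in WT to 22.2 ± 1.21 in HOM (SD, n = 8 and 10), and shares 42.24% of its words with other genes, most with Gm18180. Zfp101 (KRAB-type, 12 fingers) stood at 11.9 ± 0.641 CPM in HOM, 0.917 times its WT level. Zfp108 (KRAB-type, 12 fingers) went from 6.06 ± 0.396 to 5.44 ± 0.256 CPM, and its protein is 81.2% identical to that of Zfp93. Zfp654, which has 5 fingers and no KRAB-like stretch, went from 28.1 ± 0.889 to 25.8 ± 1.48 CPM. Each of the 4 lost its call in 8 to 14 of the 28 fits that left out 1 library, and also in both fits that left out a pair of libraries.

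Zfp219, known as a partner of Sox9 in cartilage cells, was the 1 higher gene, with 9 fingers and no KRAB-like stretch. It had 24.0, 25.4 and 27.9 CPM in its lowest, median and highest WT library, 25.2, 26.8 and 31.5 in HET, and 26.0, 28.03 and 31.0 in HOM. In HOM, 10 of 10 libraries exceeded the mean of WT and 6 its highest value. The difference between HOM and WT was 0.14 (SE 0.040, edgeR adjusted p = 0.0351). Its transcripts had the highest GC content of the 8, 61.9%, and it overlaps 2 coding genes on the other strand. With an offset for GC and length the difference was 0.07 and the call was lost (adjusted p = 0.123). It was also lost with limma, in both fits that left out a pair of libraries, and without WT 3, WT 5, WT 6, WT 7, WT 8, HOM 1 or HOM 10.

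Zfp867, a KRAB-type gene picked out after its values were seen, had the largest difference, 0.28 (SE 0.099), and did not pass the test (edgeR adjusted p = 0.0783). Its libraries ran from 3.68 to 6.11 CPM in WT and from 4.39 to 6.70 CPM in HOM and overlapped. No other of the 215 was past a 1.2-fold difference between HOM and WT.

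In the fit of a slope on the number of mutant alleles, 8 of the 215 genes passed, 7 lower and 1 higher, against 7.78% of all genes (3.79% lower and 3.99% higher), and these were the same 8. The smallest p-values among the lower ones were those of Zfp788 at -0.07 per allele (edgeR adjusted p = 0.0123), Zfp597 at -0.07 (0.0126) and Zfp655 at -0.07 (0.0255). Zfp219 rose by 0.07 per allele (edgeR adjusted p = 0.0318). The slope and the comparison of HOM with WT share their libraries, so one does not support the other.

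Between HET and WT none of the 215 genes passed edgeR's test, nor did any of the 16110 genes tested, a share of 0%. DESeq2 and limma called none of the 215 either, and 12 and 14 of all genes. At an unadjusted p under 0.05 there were 25 of the 215 (11.6%), against 9.60% of all genes. The smallest p-values belonged to Zfp275, with 42.1 ± 1.70 CPM in WT and 39.3 ± 1.71 in HET (SD, n = 8 and 10), a difference of -0.10 (edgeR adjusted p = 0.366), and to Zfp655, with a difference of -0.11 (edgeR adjusted p = 0.406).

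Between HOM and HET none of the 215 passed edgeR's test, against 0.0372% of all genes, and DESeq2 and limma again called none of them. At an unadjusted p under 0.05 there were 10 of the 215 (4.65%), against 8.54% of all genes. Zfp521, which acts in the early differentiation of blood and neural cells, had the smallest p-value, with 7.51 ± 0.618 CPM in HET and 8.33 ± 0.760 in HOM (SD, n = 10 each), a difference of 0.15 (edgeR adjusted p = 0.392). Zfp710 followed at 0.10 (edgeR adjusted p = 0.497).

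Taken as a group, the genes leaned slightly lower in both mutant genotypes. Between HOM and WT the median difference of the 215 was -0.022 on the log2 scale, with 130 of them (60.5%) below 0, against a median of 0.005 and 47.7% below 0 over all genes tested. Between HET and WT it was -0.020 with 140 (65.1%) below 0, against 0.001 and 49.5%. The 2 comparisons share the WT libraries. Between HOM and HET it was -0.001, with 109 (50.7%) below 0, against 48.7% of all genes. By library, the median deviation of the genes from their own mean ran from 0.001 to 0.042 in WT, with all 8 above 0. It ran from -0.028 to 0.013 in HET and from -0.051 to 0.012 in HOM, and the groups overlapped. The median library was at 0.016 in WT, -0.003 in HET and 0.005 in HOM, where 4 of 10 were below 0.

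The KRAB-type genes had the lower median, here and below without C030039L03Rik. Between HOM and WT, 69 of the 100 with a KRAB-like stretch were below 0, with a median of -0.035, and 58 of the 112 without the stretch were below 0, with a median of -0.008. Of the 100, 6 were called lower (6.00%) and 0 higher, and of the 112, 1 each way, against 3.71% of all genes called lower and 3.90% called higher. Between HET and WT the medians were -0.029 (74 of 100 below 0) and -0.005 (63 of 112). KRAB-type genes with 10 or more fingers, 67 in number, had a median of -0.045 between HOM and WT, with 51 below 0. For the 45 genes whose protein was over 50% identical to that of another zinc finger gene, with a Zfp symbol or not, the median was -0.037. No test of these differences between classes was made.

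**Figure D3:**
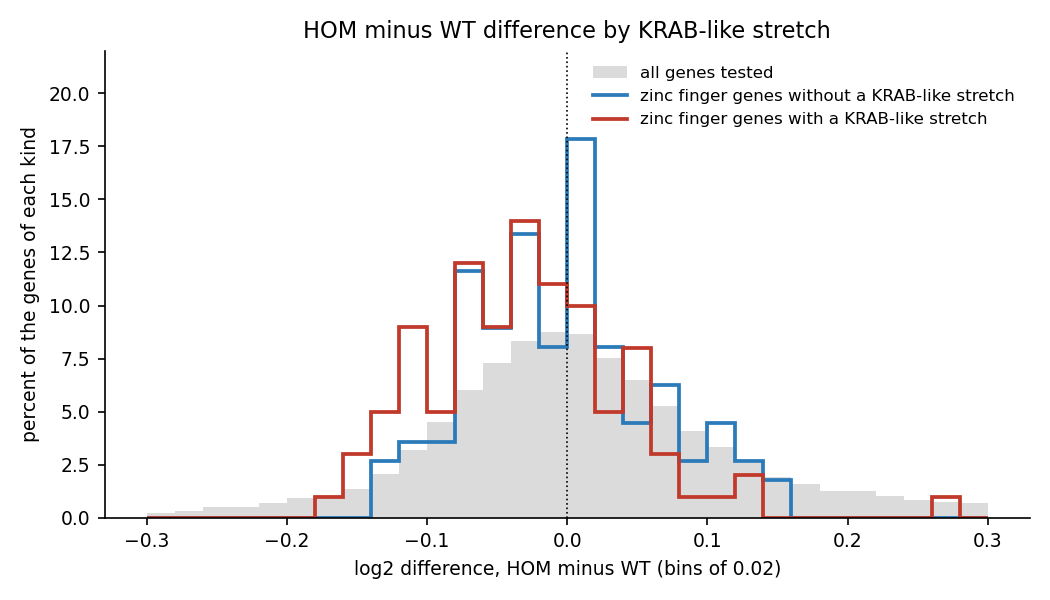
Share in percent of each kind of gene by its difference between HOM and WT (log2, bins of 0.02), for the 100 zinc finger genes with a KRAB-like stretch other than C030039L03Rik (red), the 112 without (blue) and all genes tested (grey); all-gene values beyond the axis are not drawn. The red outline sits to the left, with 69 of 100 genes below 0.

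GC content moved with these values. The 20 genes at 35 to 40% GC had a median of -0.065 between HOM and WT, 16 of them below 0, and the 44 with GC over 55% a median of 0.011, 13 below 0 with 1 higher call. Across 213 genes, Spearman's rho between GC and the difference was 0.42 between HOM and WT and 0.53 between HET and WT. Over 15905 tested genes of all kinds it was 0.31 and 0.36. All these points come from the same libraries, and genes are not independent replicates. Between HOM and HET it was 0.01 over the zinc finger genes and 0.08 over all genes.

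Genes of like GC content that are not zinc finger genes of this naming leaned the same way. At 40 to 45% GC, 63 of the zinc finger genes had a median of -0.058 between HOM and WT and 2090 other genes at 5 CPM or more one of -0.046. At 45 to 50% GC the medians were -0.037 (53 genes) and -0.018 (3080 genes), and at 55 to 60% they were 0.010 (34 genes) and 0.044 (2305 genes). Among genes under the median GC of the group, the 34 without a KRAB-like stretch had a median of -0.059, with 29 below 0. The 71 KRAB-type genes there had one of -0.039 with 50 below 0. At or over the median GC the order was the other way. The 78 genes without the stretch had a median of 0.009 with 29 below 0, and the 29 KRAB-type genes one of -0.023 with 19 below 0. When a smooth trend on GC and length was taken off in each library, the median between HOM and WT was -0.031 for the 215 genes, with 154 (71.6%) below 0, against -0.013 and 56.6% for all genes. It was -0.026 for the KRAB-type genes, -0.032 for the others. With this offset 4 of the 215 were called lower and 1 higher. The higher one was a KRAB-type gene and not Zfp219, which lost its call.

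**Figure D4:**
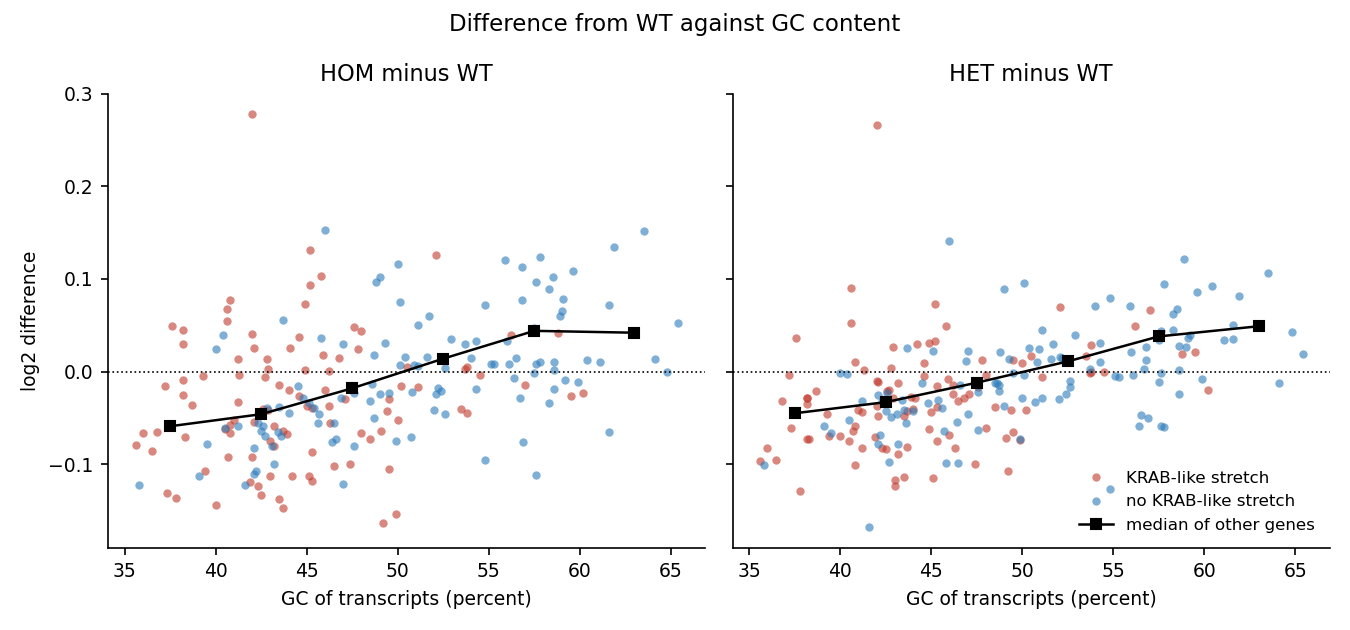
Difference from WT (log2) of each zinc finger gene other than C030039L03Rik against the GC content of its transcripts in percent, for HOM (left) and HET (right); red points have a KRAB-like stretch, blue points do not, and black squares are medians of other genes at 5 CPM or more in bins of GC. In HOM the squares rise from -0.059 at 35 to 40% GC to 0.042 at 60 to 66%, and the points follow.

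The libraries differed in this trend within each genotype. The median deviation of the KRAB-type genes was -0.018 to 0.063 in WT, -0.041 to 0.029 in HET and -0.081 to 0.023 in HOM. HOM 2 at -0.081 and HOM 1 at -0.067 were the lowest of all, and WT 6 at 0.063 the highest. In the same libraries all genes below the first quartile of GC minus those above the last quartile gave -0.116, -0.214 and 0.103. HOM 10 was at -0.111 by this GC measure but at 0.009 for the KRAB-type genes. Without HOM 1 and HOM 2 the KRAB-type median between HOM and WT was -0.026 with 65 of 100 below 0, and that of the others -0.009 with 64 of 112 below 0. Without WT 6 and HOM 3 they were -0.024 and -0.007. The part of GC, depth or single libraries in the lean was not tested beyond these values.

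**Figure D5:**
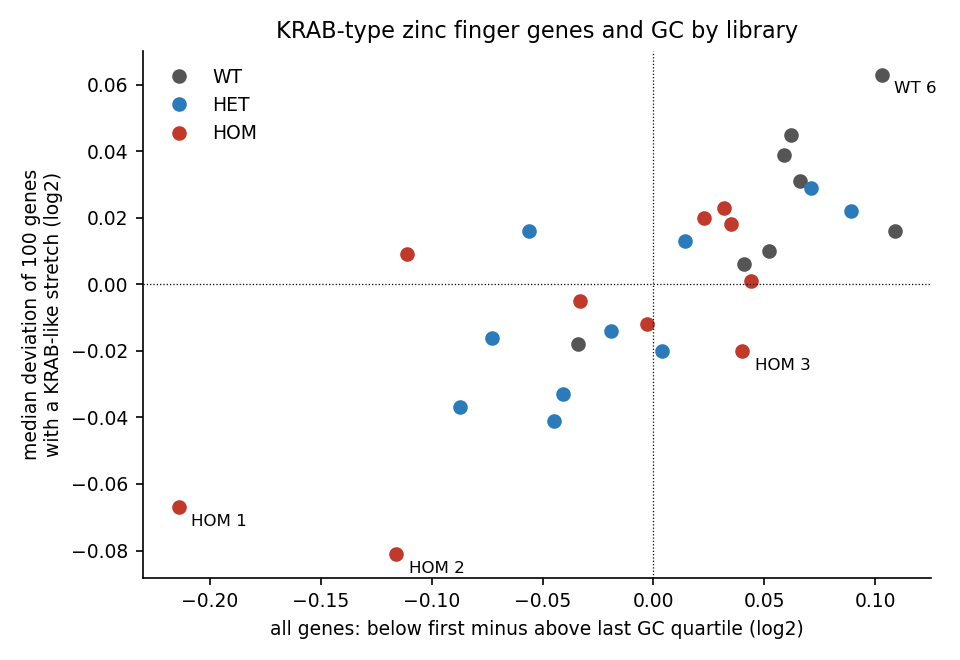
Median deviation of the 100 KRAB-type zinc finger genes other than C030039L03Rik from their mean over all libraries (log2) against the difference between all genes below the first and above the last quartile of GC (log2), with 1 point per library by genotype. The points run from HOM 1 and HOM 2 at the lower left to WT 6 at the upper right. HOM 10, not labelled, lies above this run, at -0.111 across and 0.009 up.

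Neighbouring genes were similar in some clusters. With gaps under 1 Mb, 101 of the 216 genes fell into 18 runs of 3 or more, and 13 runs had a median below 0 between HOM and WT. The 5 genes of the run that starts with Zfp788 on chromosome 7 (Zfp788, Zfp141, Zfp715, Zfp658 and Zfp719) were all below 0, with a median of -0.092, and the 8 other genes tested there had a median of 0.015. The 6 genes from Zfp790 to Zfp146 on chromosome 7 were all below 0, with a median of -0.075, and the 7 other genes tested there had one of -0.022. The 10 KRAB-type genes from Zfp160 to Zfp213 on chromosome 17 had a median of -0.031 with 9 below 0, and the 14 other genes tested there one of -0.032 with 9 below 0. In contrast, the 4 genes from Zfp628 to Zfp580 on chromosome 7, none with a KRAB-like stretch, were all above 0, with a median of 0.032, and the 8 other genes tested there had one of 0.058. These runs were picked out after their values were seen.

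In their levels over the 28 libraries, 5 of the genes were most like C030039L03Rik. Pearson's r of log2 CPM was 0.62 for Zfp367, 0.61 for Zfp788, 0.61 for Zfp597, 0.60 for Zfp292 and 0.56 for Zfp654, with a median of 0.13 over the group and -0.01 over all genes tested. After the genotype means were taken off, r was 0.43, 0.16, 0.09, 0.58 and 0.22, so for Zfp788 and Zfp597 the likeness lay mostly between the genotypes. The pair of proteins closest to each other was Zfp369 and Zfp110, at 83.0% identity.

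A list of 32 repressor partners held corepressors, histone methyltransferases, deacetylases and other genes of chromatin repression. Whether each of them acts with KRAB proteins in this tissue was not tested. Of the 32, 31 were tested between HOM and WT, of which 1 rose, 1 fell and 29 did not pass. That is 6.45% called against 7.61% of all genes, with a median of -0.031 and 23 below 0. Trim28 stood at 98.4 ± 3.22 CPM in WT, 97.4 ± 3.51 in HET and 98.3 ± 6.61 in HOM (edgeR adjusted p = 0.977 between HOM and WT). Setdb1 stood at 63.8 ± 3.09, 62.0 ± 2.30 and 62.4 ± 3.09 CPM (edgeR adjusted p = 0.571). Hdac1, a histone deacetylase, rose from 18.2 ± 0.473 CPM in WT to 19.9 ± 0.871 in HOM, a difference of 0.13 (SE 0.031, edgeR adjusted p = 0.0150), with 9 HOM libraries above the highest WT library. Rbbp4, a histone-binding subunit of several repressor complexes, fell from 129 ± 3.04 to 121 ± 5.01 CPM, a difference of -0.10 (SE 0.024, edgeR adjusted p = 0.0153), with 7 HOM libraries under the lowest WT value. Hdac1 lost its call without WT 6 and HOM 3 together (adjusted p = 0.0573), and Rbbp4 with the offset for GC and length (adjusted p = 0.0574).

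Related families were also compared between HOM and WT, where 3.71% of all genes were called lower and 3.90% higher; their difference from the genes described was not tested. For Zfp genes with 1 or 2 digits the median was -0.019, and 6 of 45 were called lower (13.3%) and 0 higher. For Zbtb genes it was -0.034, and 3 of 36 were lower (8.33%), for Zkscan and Zscan genes -0.010 with 2 of 17 lower (11.8%), and for Klf and Sp genes -0.017 with 1 of 26 called each way. Among the 63 Zfp genes with 3 digits that were tested but under 5 CPM the median was 0.000, with 2 lower and 1 higher. The spread between libraries of the 216 genes, as the biological coefficient of variation, had a median of 5.43%, close to the 5.71% of all 11376 genes in their range of levels.

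Markers of other cells moved between HOM and WT as well. Between these groups, 3 of 6 microglia markers, 2 of 5 astrocyte markers, 3 of 4 precursor markers, 3 of 6 endothelial and mural markers and 2 of 6 meningeal markers rose, against 3.90% of all genes, and 1 of 6 neuron markers fell, against 3.71%. Summed over each list, microglia markers were at 342 to 399 CPM in WT and 375 to 482 in HOM, astrocyte markers at 1085 to 1308 and 1236 to 1492, precursor markers at 99.5 to 114 and 112 to 140, and meningeal markers at 33.6 to 57.8 (median 46.5) and 42 to 121 (median 61.2), with ranges that overlapped in each list. None of the oligodendrocyte, choroid plexus, striatum or excitatory neuron markers found passed the test. Summed striatum markers varied widely within each genotype, from 125.8 to 474.9 CPM in WT, 134.3 to 242.1 in HET and 129.7 to 354.2 in HOM. The part of these cells in the differences of the zinc finger genes was not tested.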

How the data were processed

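The deposited table holds raw counts per gene for 28 libraries, with no normalization by the authors. Per the submitters' processing notes, reads went through Trim Galore 0.4.3 and HISAT2 2.0.5 with GRCm38. How reads were counted, with which strand setting and which gene models, is not given in the sources used here. Per the labels' protocols the kit is stranded. The 122 rows of 57 identifiers present in several rows (Zfp319 among them) were summed to give 25900 genes.

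Counts were fitted in edgeR 4.0.16 (R 4.3.3): filterByExpr, which left 16110 genes, TMM, and robust quasi-likelihood tests, two-sided, over all 28 libraries, with Benjamini-Hochberg adjustment over all genes and a threshold of 0.05. A second fit used the number of mutant alleles as a slope. CPM of single genes are TMM-scaled, and RPKM divide them by the union of exons in GENCODE vM21. The limit of 5 CPM, the levels next to it and the summed levels of genes or markers were scaled to library totals only. A step tested on simulated data recovered 21 of 50 genes changed by 15%, 44 of 50 changed by 30% and 50 of 50 changed by 60% between HOM and WT, with 7 false calls among 16055 genes. Planned RefSeq proteins were replaced by translated GENCODE coding sequences, in which a profile of 41 residues (pyhmmer 0.12.3, E value up to 1e-05) found KRAB-like stretches. The smallest chi-square per degree of freedom over 378 library pairs was 6.12, so no 2 libraries were alike within sampling noise.

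Members and lists were chosen with earlier results of these data known. Named genes are C030039L03Rik, members called between HOM and WT, the 2 smallest p-values where a comparison calls none, the 3 leading slopes each way, the 5 highest and 3 lowest RPKM, the genes next to 5 CPM, the closest proteins and patterns, and the repressor partners Trim28, Setdb1 and those called. Alternatives were DESeq2 1.42.0, limma 3.58.1, other scalings, filters, member rules and fits without single libraries; the GC and length offset and both fits without a pair of libraries were added after seeing the data.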

Additional observations from a re-analysis of the deposited data

How the results depend on the processing

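Under every alternative run, the median difference of the 215 zinc finger genes moved by less than 0.012, the SD of the medians of single WT libraries. That SD is not the error of a difference between groups. Between HOM and WT the median was -0.022 in the main fit, -0.014 without WT 6 and HOM 3 and -0.031 with the GC and length offset. It ran from -0.030 to -0.016 when single libraries were left out. Between HET and WT and between HOM and HET, 0 of the 215 were called under every alternative run. Between HOM and WT the 7 lower calls became 12 with DESeq2, 4 with no count filter, 11 with 1 CPM in 8 libraries, 13 for Zfp with any number of digits, 4 with the GC and length offset, and 2 without either pair of libraries. The 1 higher call became 3 with limma, 2 at a mean CPM of 2 or more, and 0 without HOM 1 and HOM 2. Zfp219 was not among the higher genes with limma, with the offset or without WT 6 and HOM 3. Leaving out single libraries gave 2 to 12 lower and 0 to 4 higher calls. For the slope, the 7 lower calls became 14 with DESeq2, 12 with 1 CPM in 8 libraries, 11 with limma, 13 for any digits, 4 with the offset and 2 without either pair; the 1 higher call became 2 with limma, a mean CPM of 2, the offset or without WT 6 and HOM 3, and 0 without HOM 1 and HOM 2. Leaving out single libraries gave 2 to 12 lower and 0 to 5 higher slopes. Among all genes the calls between HOM and WT went from 1226 to 1563 with DESeq2, 509 without WT 6 and HOM 3, 737 with the block below and 595 without WT 6. The cause was not tested. Zfp788 and Zfp597 kept their calls in all 28 fits without a library and in the 11 other settings.

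With the replicate number as a block, 2 genes were lower between HOM and WT and 3 by slope. By the correlation of their deviations, same-numbered libraries were little alike. Of 26 same-numbered pairs, 5 had r over 0.1 (-0.16 to 0.18), and 3 of 26 libraries were closest to their own number. Whether a number marks a shared batch or order of preparation was not tested.

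In simulation, 21 of 50 genes changed by 15% and 44 of 50 changed by 30% were found, and the differences called among the 215 were smaller than both. Reads of near-identical genes and of opposite strands cannot be told apart here.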
